A study of Rattus norvegicus with 12 samples.

Results

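Colon of sham rats was compared with hippocampus of sham rats in 6 of the 12 RNA sequencing libraries of a study of neonatal rats with hypoxic-ischemic brain damage (HI). The libraries were chosen by their tissue and treatment labels: 3 colon libraries and 3 hippocampus libraries, both of rats labelled Sham. The 6 HI libraries, 3 of each tissue, served only as 1 of the alternatives. Sham treatment was thus shared by both groups, and only the organ differed by label. The labels used here give no strain, sex, age at sampling or description of the sham procedure. They also do not tell whether a library was made from 1 animal or from a pool, or whether the colon and hippocampus pieces were taken from the same rats. The p-values below therefore set a difference against the variation between these libraries, and that variation may be technical.

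The wall of the colon is lined by absorptive cells and mucus-secreting goblet cells, renewed from stem cells in crypts, and lies over connective tissue, layers of smooth muscle, immune cells and the ganglia of the enteric nervous system. The hippocampus is a cortical structure made mostly of glutamatergic pyramidal and granule neurons, with inhibitory interneurons, astrocytes, oligodendrocytes, microglia and blood vessels. Many enzymes, pumps and trafficking proteins are encoded by several related genes, of which one is used by most cells and another mainly by neurons.

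Each tissue has its own table of FPKM (mapped fragments relative to transcript length and library total). The colon table lists 14803 genes, and 14266 genes are listed for the hippocampus. Of 15939 genes in all, 13130 stand in both, 1673 in the colon table only and 1136 in the hippocampus table only. To set the tissues side by side, the FPKM of each library were rescaled so that the genes in both tables summed to 1000000, and the rescaled value is called TPM here. Because each tissue was tabulated separately, a difference between tissues and a difference between tables cannot be told apart. Sequencing depth is unknown. Among the 3 sham columns for colon, 2 carry the same heading, and 3a and 3b are used here to tell these libraries apart.

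The libraries of a tissue resembled each other, with 3 features that bear on the results. Pairs of colon libraries differed by a median of 0.111 to 0.163 on the log2 scale, and pairs of hippocampus libraries by 0.0971 to 0.13, and colon sham 3b was the least like its group. The Y-linked genes Eif2s3y, Kdm5d and Ddx3 stood at 24.8 to 75.8 TPM in colon sham 3a and 3b, and at no more than 0.418 TPM in colon sham 1 and 0.215 TPM in the hippocampus libraries. Y-linked expression therefore moved with tissue in 2 of 3 colon libraries. Sex was thus not balanced between the tissues, and its part in the results was not tested. Levels this far apart do not go with colon sham 3a or 3b sharing their rats with these hippocampus libraries. For colon sham 1 these genes cannot tell. Finally, 13 genes of colon epithelium and goblet cells summed to 16682 to 19389 TPM in the colon libraries, against 73.7, 26.1 and 23.6 TPM in hippocampus sham 1, 2 and 3. These hippocampus sums were 0.412%, 0.146% and 0.132% of the mean colon sum. Hippocampus sham 1 had the highest value of the 3 for 12 of the 13 genes, the exception being Krt18. The source of the signal was not tested. The summed epithelial and pan-neuronal markers did not overlap between the labelled tissues.

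**Figure D1:**
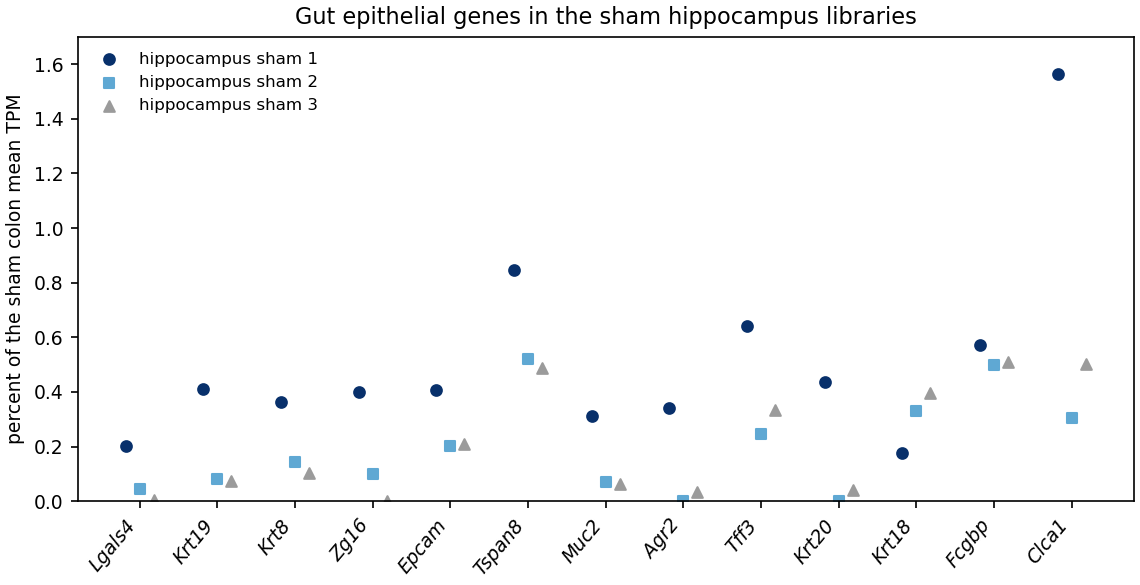
Level of 13 epithelial and goblet cell genes in each hippocampus library, as a percentage of the same gene's mean TPM in the 3 colon libraries; each marker is 1 library. Hippocampus sham 1 lies above sham 2 and sham 3 for 12 of the 13 genes, and no value exceeds 1.56%.

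Of 13098 genes tested with limma, 3018 (23.0%) were higher and 2655 (20.3%) were lower in colon than in hippocampus, so that 43.3% were called. A call required a Benjamini-Hochberg adjusted p under 0.05 and a difference of at least 1 on the log2(TPM + 1) scale, that is 2-fold. The colon and hippocampus libraries did not overlap for 10984 genes (83.9%), and 2420 genes (18.5%) did not pass the adjusted p. A difference of 32-fold or more, 5 on the log2 scale, was reached by 103 of the genes higher and 147 of the genes lower in colon. The median difference over all genes tested was 0.10, colon minus hippocampus, and the counts and medians of gene groups below are to be read against it and against 23.0% higher and 20.3% lower. In bulk tissue, fewer cells of a type and less RNA of a gene in each cell cannot be told apart.

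**Figure D2:**
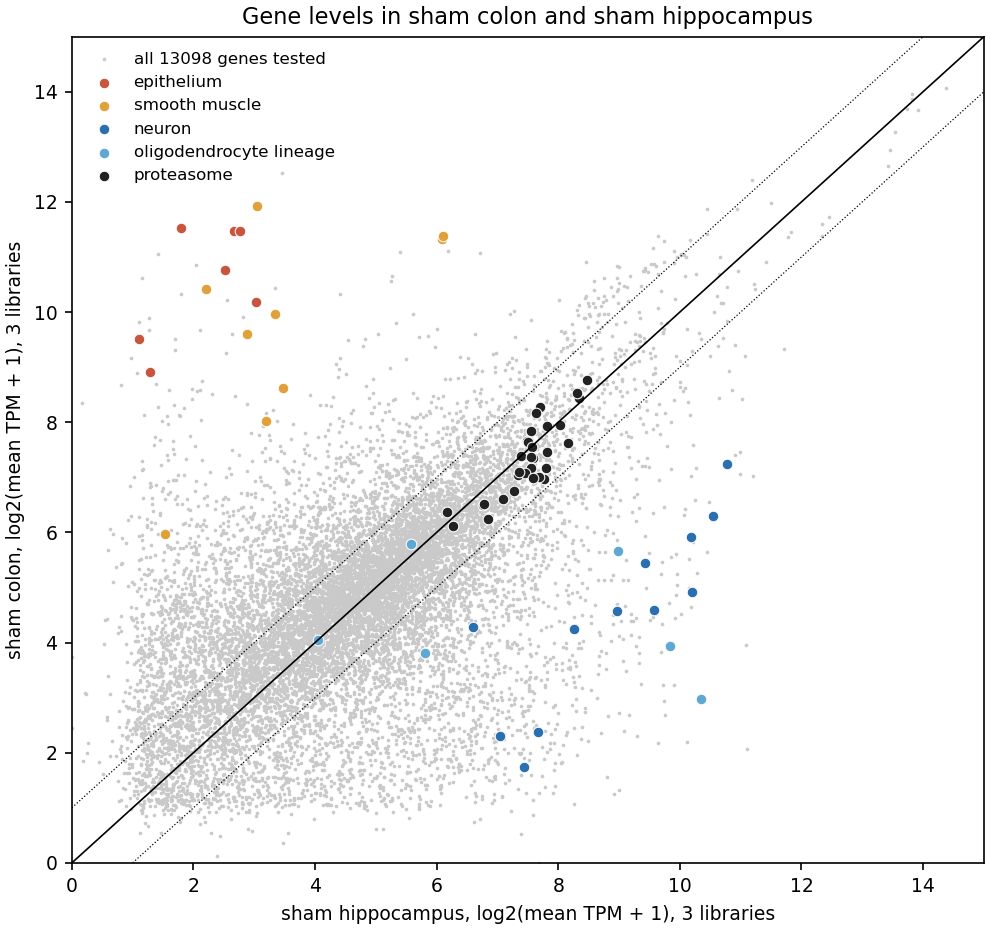
Mean level of each of the 13098 tested genes in sham colon (vertical axis) and sham hippocampus (horizontal axis), both as log2(TPM + 1), with genes of 5 groups coloured; the solid line marks equal levels and the dotted lines a difference of 1. Epithelial and smooth muscle genes lie above the lines, genes of neurons lie below them, and the proteasome genes lie between the dotted lines.

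The genes that were furthest higher in colon were those of its epithelium, its mucus and its muscle. Lgals4, which encodes galectin-4, a lectin of the gut epithelium that binds sugars on the cell surface, had 3102, 3108 and 2647 TPM in colon, against 5.94, 1.28 and 0.192 TPM in hippocampus. Its difference was 10.11 ± 0.53 on the log2 scale (SE, n = 3 each; limma adjusted p = 3.08e-07). In the deposited coordinates, whose build the labels and headers do not name, Lgals4 (ENSRNOG00000020338) lies on the + strand of chromosome 1 from 87019975 to 87027691. Lypd8, a secreted protein of the colon surface that keeps flagellated bacteria away from the epithelium in mice, had 5799, 5897 and 6016 TPM in colon, and 23.3, 2.45 and 4.02 TPM in hippocampus. The highest hippocampus value of both genes belonged to sham 1, and without that library the differences were 10.8 for Lgals4 and 10.47 for Lypd8. Zg16, a lectin of the mucus layer, had 1923, 1497 and 2141 TPM in colon and 7.41, 1.88 and 0 TPM in hippocampus. The intestinal smooth muscle actin gene Actg2 had 3960.4, 3459.6 and 4225 TPM in colon and 15.7, 3.0 and 3.05 TPM in hippocampus.

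The 7 tested members of a list of 12 epithelial genes were all higher in colon, with a median difference of 8.68 on the log2 scale, and the other 5 stood in the colon table only. Epcam, an adhesion molecule of epithelial cells, had 1763, 1718 and 1733 TPM in colon, against 7.10, 3.53 and 3.66 TPM in hippocampus (difference 8.29 ± 0.20, SE, n = 3 each; limma adjusted p = 3.73e-09). The keratins of simple epithelia followed the same order: Krt8, Krt18, Krt19 and Krt20 were higher by 7.64 to 9.13. Krt10, a keratin of skin, was not called, with 3.32, 4.82 and 4.01 TPM in colon and 2.84, 4.33 and 4.95 TPM in hippocampus. Without hippocampus sham 1 the median of the epithelial list was 9.29. E-cadherin (Cdh1), which joins epithelial cells to each other, stood in the colon table only with 525, 492 and 518 TPM. So did Cdh17, Vil1, Cldn7 and Elf3, Vil1 the lowest of them with 419, 406 and 385 TPM.

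Goblet cell genes formed a second group. All 6 tested of 9 were higher in colon, with a median difference of 8.18, and Spdef, Retnlb and Spink4 stood in the colon table only. Muc2, the mucin that builds the gel of the colon and is listed as AABR07006030.1, had 825, 854 and 1158 TPM in colon, against 2.97, 0.672 and 0.594 TPM in hippocampus (difference 8.74 ± 0.33, SE, n = 3 each; limma adjusted p = 3.99e-08). Agr2, a disulfide isomerase needed for Muc2 to fold, was higher by 8.99. Members varied within the colon: Clca1, a protease secreted with mucus, had 208, 101 and 443 TPM, and Retnlb, a goblet cell protein that acts on bacteria, had 48.9, 22.9 and 133 TPM. For both of these genes colon sham 3b was the highest library.

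The absorptive surface gave a further group. Of 22 brush border genes, 10 of 13 tested were higher in colon and none was lower, with a median difference of 3.61, and 8 stood in the colon table only. Eps8l2, an actin regulator of microvilli, had 319, 306 and 297 TPM in colon and 3.67, 2.10 and 1.94 TPM in hippocampus. Pls1, a protein that bundles the actin core of the microvillus, had 158, 158 and 162 TPM in colon and 3.49, 3.31 and 3.42 TPM in hippocampus. The 3 members that were not called, Eps8, Myo5b and Slc9a3r1, code for proteins that also work outside microvilli. Myo5b had 28.7, 28.1 and 30.01 TPM in colon and 30.6, 32.2 and 31.1 TPM in hippocampus. Intestinal alkaline phosphatase, Alpi, stood in the colon table only and differed widely between libraries, with 6.95, 196 and 57.7 TPM in sham 1, 3a and 3b.

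Among the genes that stood in the colon table only, Dmbt1, a scavenger receptor secreted onto mucosal surfaces, had the highest mean among those without a provisional name, with 1419, 1295 and 1026 TPM. Gpa33, a surface antigen of gut epithelium, had 742, 756 and 723 TPM. Colon sham 3b had far less than the others of Car1, a carbonic anhydrase of colonocytes, with 1376, 1920.0 and 388 TPM in sham 1, 3a and 3b. The fatty acid binding protein gene Fabp1 showed the same split, with 1161, 1211 and 327 TPM. Ms4a8, Cldn7, Fam3d, Muc13, Elf3 and Cdh1 made up the rest of the 10 leading genes.

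Hormone genes of gut endocrine cells did not go one way. Glucagon, Gcg, from which gut cells make the incretin GLP-1, stood in the colon table only, with 577, 538 and 374 TPM. Peptide YY, Pyy, had 295, 268 and 281 TPM in colon, against 3.28, 0 and 0.549 TPM in hippocampus (difference 7.23). Sct, Tph1 and Neurog3 also stood in the colon table only. Cck, Neurod1 and Chgb, which neurons use as well, were lower in colon. Cholecystokinin, Cck, had 7.21, 6.56 and 13.2 TPM in colon and 244, 269 and 291 TPM in hippocampus. The call of Chgb, a secretory granule protein, was close to the limit of 1: its difference was -1.01. The call was lost without hippocampus sham 1 (-0.96), without colon sham 3b (-0.96), without colon sham 1 (-0.998) and on FPKM as deposited (-0.89).

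The transcription factors that specify gut epithelium mostly had no row in the hippocampus table. Of 28 such genes, 19 stood in the colon table only, 6 of 7 tested were higher in colon and none was lower. Cdx2, the homeobox factor that gives cells an intestinal identity, had 301, 299 and 272 TPM in colon, and its relative Cdx1 had 224, 222 and 200.3 TPM. Hnf4a, a nuclear receptor that drives genes of absorptive cells, had 249, 249.8 and 291 TPM, and Atoh1, the factor that directs cells to secretory fates, had 56.2, 54.2 and 60.7 TPM. Klf5, a factor of crypt cells, had 342, 341 and 381 TPM in colon and 7.54, 4.57 and 4.15 TPM in hippocampus (difference 5.83). Sox9, which marks crypt base cells in the gut and astrocytes in the brain, was not called, with 40.1, 44.9 and 34.2 TPM in colon and 20.3, 23.8 and 21.4 TPM in hippocampus. Grhl1 went the other way and stood in the hippocampus table only, with 8.47, 9.13 and 8.35 TPM.

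The promoter of Lgals4, the gene with the largest difference, is shown because it holds a pair of half-sites of the kind that HNF4 factors bind. The stretch is chr1:93252035-93252334 on the + strand of the RefSeq assembly GRCr8, 250 bases before to 50 bases after the start, and the capitals mark the letters CAAAGTCCA, whose first base is at -212 from the start.
Lgals4: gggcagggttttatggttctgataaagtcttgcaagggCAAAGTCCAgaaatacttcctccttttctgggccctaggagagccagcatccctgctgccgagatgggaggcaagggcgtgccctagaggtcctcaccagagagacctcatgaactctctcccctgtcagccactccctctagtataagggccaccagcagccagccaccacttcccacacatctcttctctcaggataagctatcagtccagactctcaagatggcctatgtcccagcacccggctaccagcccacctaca
On either strand these letters were found in 13 of 1025 promoters of genes in the colon table only (1.27%). For genes in the hippocampus table only they were found in 4 of 741 promoters (0.540%). The share was 0.322% for genes higher in colon, 0.158% for genes lower in colon, 0.237% for genes not called and 0.375% over all 27457 promoters. A match in these windows is a description and does not show that a factor binds there.

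Genes of muscle and connective tissue were also higher in colon. All 9 tested of 10 smooth muscle genes were higher in colon, with a median difference of 5.30, and Synpo2 stood in the colon table only. The list summed to 11856 to 14367 TPM in colon and to 145 to 247 TPM in hippocampus, where sham 1 was again the highest. Cnn1, which encodes the contractile regulator calponin, had 1291, 1159 and 1639 TPM in colon, against 6.12, 2.49 and 2.16 TPM in hippocampus (difference 8.30 ± 0.29, SE, n = 3 each; limma adjusted p = 2.51e-08). Of 8 tested fibroblast genes 7 were higher and none was lower, with a median of 4.98. Col3a1, a fibrillar collagen, had 2169.6, 2023 and 2319 TPM in colon and 41.4, 39.8 and 41.5 TPM in hippocampus. Pdgfra was not called, with 51.5, 53.3 and 57.1 TPM in colon and 45.5, 47.2 and 48.2 TPM in hippocampus; in the gut it marks fibroblasts and in the brain precursors of oligodendrocytes.

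Of 20 transcription factors of gut mesenchyme, 8 stood in the colon table only and 1 in the hippocampus table only. Of 9 tested 5 were higher in colon and none was lower. The number higher was 4 without hippocampus sham 1, without hippocampus sham 2, without colon sham 1 and on FPKM as deposited. It was 6 with a pseudocount of 0.1 TPM. Tcf21, a factor of visceral fibroblasts, had 273, 272 and 261 TPM. Foxf1, which the gut mesenchyme expresses under Hedgehog signals from the epithelium, had 127, 127 and 116 TPM in colon and 2.08, 2.52 and 1.94 TPM in hippocampus (difference 5.29 ± 0.10, SE, n = 3 each; limma adjusted p = 1.13e-09). The 2 relatives Meis1 and Meis2 differed in their pattern. Meis1 was higher in colon by 3.48, whereas Meis2 was not called, with 23.5, 27.4 and 20.6 TPM in colon and 29.2, 34.4 and 28.4 TPM in hippocampus.

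Genes of lymphocytes and of antigen presentation were higher in colon. All 4 tested of 11 lymphocyte genes were higher and 7 stood in the colon table only. Cd4 had 35.7, 28.1 and 23.7 TPM in colon and 4.38, 6.59 and 2.89 TPM in hippocampus. B cell genes were lowest in colon sham 3b: Cd79a, part of the B cell receptor, had 23.0, 15.7 and 3.41 TPM in sham 1, 3a and 3b. Of 12 genes of the immunoproteasome and antigen presentation, all 10 tested were higher in colon, with a median difference of 2.45, and the regulators Nlrc5 and Ciita stood in the colon table only. Cd74, the invariant chain that escorts class II molecules, had 923, 729 and 546 TPM in colon and 3.47, 1.28 and 1.95 TPM in hippocampus (difference 7.85). Psmb8, a catalytic subunit that replaces Psmb5 in the immunoproteasome, had 70.8, 53.8 and 29.9 TPM in colon and 2.51, 1.77 and 2.28 TPM in hippocampus.

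Against this, the standard proteasome differed by less than 2-fold. None of its 31 subunits was called in either direction by limma, and their differences lay between -0.80 and 0.57, with a median of -0.25. By the adjusted p alone 7 were higher and 17 lower in colon, among them Psmb5, with 211, 189 and 188 TPM in colon and 291, 281 and 288 TPM in hippocampus (difference -0.55 ± 0.06, SE, n = 3 each; limma adjusted p = 3.46e-05). The inducible subunits Psmb8, Psmb9 and Psmb10 were higher in colon by 2.39 to 3.96.

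At the other end, the genes furthest lower in colon belonged to neurons and glia. Camk2a, a kinase of the postsynaptic density, had 3.76, 4.35 and 2.59 TPM in colon, against 1126, 1156 and 1057 TPM in hippocampus. Its difference was -7.95 ± 0.13 (SE, n = 3 each; limma adjusted p = 8.61e-10). Camk2a (ENSRNOG00000018712) lies on the + strand of chromosome 18 from 56193978 to 56295869 in the deposited coordinates. Slc1a3, a glutamate transporter of astrocytes, had 1.71, 1.74 and 1.01 TPM in colon and 519.9, 509.7 and 498 TPM in hippocampus. Mbp, a major protein of myelin, had 6.08, 8.78 and 5.85 TPM in colon and 1182, 1051 and 1685 TPM in hippocampus, where sham 3 was the highest library. The calmodulin-binding protein gene Nrgn had 9.22, 8.13 and 26.1 TPM in colon, highest in sham 3b, and 2175, 2117 and 2272 TPM in hippocampus.

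**Figure D3:**
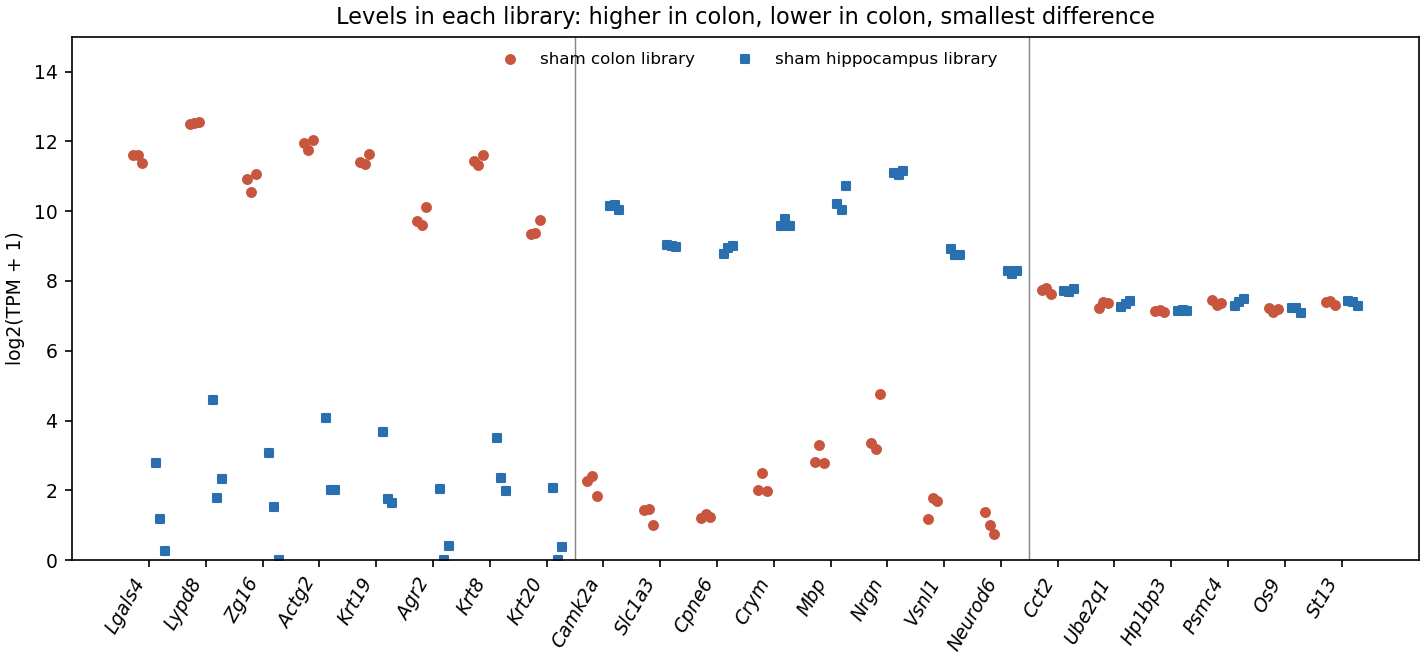
Level of 22 genes in each library as log2(TPM + 1), with sham colon as red circles and sham hippocampus as blue squares: 8 of the genes furthest higher in colon, 8 of those furthest lower and the 6 with the smallest difference among genes of at least 100 TPM in every library. The groups are apart for the first 16 genes and interleaved for the last 6, and 1 hippocampus library, sham 1, stands above the other 2 for the genes higher in colon.

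All 12 pan-neuronal genes were lower in colon, with a median difference of -4.34. Their summed level was 398 to 505 TPM in colon and 8349 to 8522 TPM in hippocampus. Colon was not at 0 for them: Uchl1, a ubiquitin hydrolase abundant in neurons and neuroendocrine cells, had 136, 167 and 151 TPM in colon, against 1689.6, 1785 and 1788 TPM in hippocampus. Map2, which stabilises dendritic microtubules, was uneven within the hippocampus, with 1.90, 1.73 and 3.35 TPM in colon and 233, 64.5 and 217 TPM in hippocampus sham 1, 2 and 3. The vesicular glutamate transporter Slc17a7 stood in the hippocampus table only, at 1261, 1251 and 1182 TPM, the highest mean among genes in that table only. Slc17a6 and Grin2b did so as well.

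Of 9 genes of inhibitory neurons, 4 stood in the hippocampus table only and 5 in both tables. The GABA-synthesising enzymes Gad1 and Gad2, the GABA transporter Slc32a1 and the interneuron factor Lhx6 were the 4, with Gad1 at 159, 157 and 156 TPM. Of 5 tested members 4 were lower in colon, among them Sst, which endocrine cells of the gut also make, with 148, 182 and 100.4 TPM in colon and 533, 612 and 610.3 TPM in hippocampus. The exception was Vip, the vasoactive peptide of interneurons and of enteric neurons, with 59.3, 82.7 and 68.7 TPM in colon and 22.8, 24.5 and 24.2 TPM in hippocampus (difference 1.51 ± 0.12, SE, n = 3 each; limma adjusted p = 3.56e-06). With the HI libraries of both tissues in place of sham its difference was 0.79 (limma adjusted p = 0.000768), which ended the call.

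The nervous system of the gut was visible in its own genes. Of 11 tested genes of enteric neurons, 6 were higher in colon and none was lower, with a median difference of 1.51, and Phox2a, Chat and Hand2 stood in the colon table only. With the HI libraries of both tissues in place of sham 5 were higher and the median was 0.79, and with a pseudocount of 5 TPM 5 were higher and the median was 0.99. Peripherin, Prph, an intermediate filament of peripheral neurons, had 122, 153 and 132 TPM in colon and 13.55, 13.3 and 10.1 TPM in hippocampus (difference 3.37). The subunits Chrna3 and Chrnb4 of the ganglionic acetylcholine receptor were higher by 3.21 and 2.79. Ret, the receptor on which enteric neurons depend to colonise the gut, had 15.1, 18.5 and 15.1 TPM in colon and 2.90, 4.43 and 4.07 TPM in hippocampus. Nos1, the synthase of the relaxing transmitter nitric oxide, was not called, with 9.67, 10.9 and 8.97 TPM in colon and 7.95, 10.1 and 6.42 TPM in hippocampus.

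Glial genes divided by lineage. The enteric glial list gave 2 higher and 4 lower of 6 tested. Erbb3 and Ngfr, receptors of neural crest glia, were higher in colon, Erbb3 with 74.1, 71.5 and 68.8 TPM in colon and 4.45, 3.97 and 5.43 TPM in hippocampus, while Cdh19 and Gfra3 stood in the colon table only. Gfap, S100b and Sox10, which brain glia share, were among those lower in colon. Of 8 tested astrocyte genes 6 were lower in colon and none was higher, and Slc1a2 and Fabp7 stood in the hippocampus table only. Of 6 tested genes of the oligodendrocyte lineage 4 were lower in colon and none was higher, and Mog, Mag, Olig1 and Olig2 stood in the hippocampus table only. The myelin genes were highest in hippocampus sham 3, where Mog had 99.4 TPM, beside 45.0 and 51.8 TPM in sham 1 and sham 2.

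Markers of tissue macrophages did not separate the organs as a block. Of 10 microglial genes 4 were higher and 3 lower in colon, with a median difference of 0.18. The purinergic receptor P2ry12 had 7.502, 7.70 and 7.31 TPM in colon and 50.5, 54.0 and 59.7 TPM in hippocampus (difference -2.71), and Trem2 and Cx3cr1 were lower too, the call of Cx3cr1 being lost on FPKM as deposited (-0.95). The 3 chains of complement C1q were higher in colon, with C1qc at 199, 164 and 167 TPM in colon and 39.2, 43.0 and 49.6 TPM in hippocampus. Tmem119, often used as a marker of microglia, was higher in colon as well, with 65.4, 59.8 and 54.0 TPM in colon and 18.2, 17.6 and 19.96 TPM in hippocampus (difference 1.63 ± 0.09, SE, n = 3 each; limma adjusted p = 4.37e-07). Csf1r, the growth factor receptor common to macrophages, was not called, with 53.6, 47.5 and 40.4 TPM in colon and 57.9, 56.8 and 57.8 TPM in hippocampus. The call of C1qa did not hold without colon sham 1.

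Vessels and blood gave smaller differences. Of 9 endothelial genes 1 was higher and 2 were lower in colon. The number higher was 2 without hippocampus sham 1 and also on FPKM as deposited. Cldn5, the tight junction protein of the blood-brain barrier, had 24.97, 27.7 and 35.0 TPM in colon and 142, 133 and 156 TPM in hippocampus (difference -2.27). Kdr, a receptor of vascular endothelial growth factor, was not called, with 15.2, 12.9 and 14.2 TPM in colon and 14.0, 14.1 and 14.0 TPM in hippocampus. Haemoglobin genes were lower in colon: Hbb had 277, 218 and 255 TPM in colon and 506, 565 and 946 TPM in hippocampus. Haemoglobin genes have near-identical copies between which reads could be split, so their levels are uncertain, and how much blood the tissues held was not tested.

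Forebrain transcription factors mirrored those of the gut. Of 30 genes, 8 stood in the hippocampus table only and 14 of 19 tested were lower and 1 was higher in colon, with a median difference of -2.44. Lhx2, which the cortical and hippocampal primordium needs, had 112, 107 and 119.7 TPM in the hippocampus table only. Neurod6, a factor of glutamatergic neurons, had 1.59, 1.01 and 0.687 TPM in colon and 312, 293 and 311 TPM in hippocampus (difference -7.22). Nfia, Nfib, Zbtb20 and Zeb2 were not called, Nfia with 31.2, 31.1 and 32.5 TPM in colon and 34.0, 30.6 and 30.5 TPM in hippocampus.

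**Figure D4:**
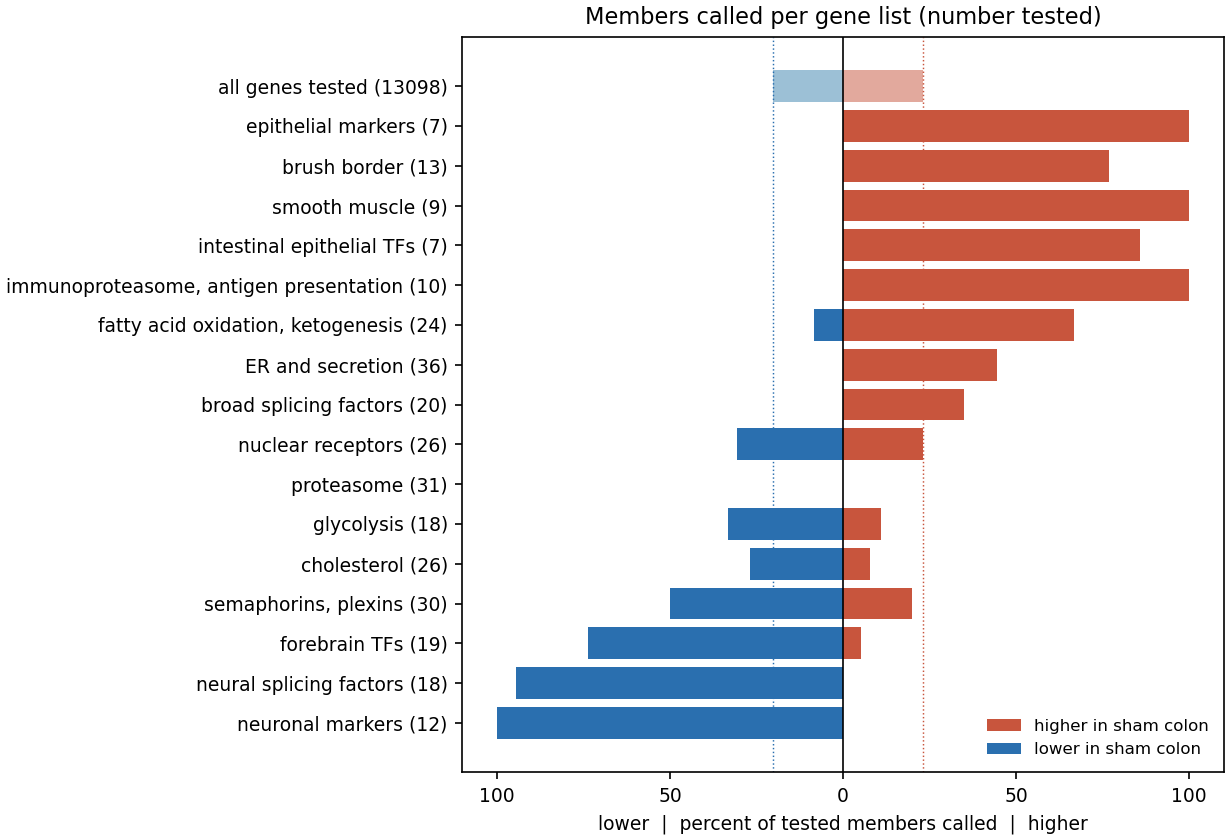
Percentage of the tested members of each gene list that were called higher in colon (to the right) and lower in colon (to the left); the dotted lines mark the 23.0% and 20.3% of all 13098 tested genes. Lists of epithelium, smooth muscle and antigen presentation reach 100% on the right, pan-neuronal genes reach 100% on the left, and the proteasome has no call on either side.

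Regulators of splicing differed by family. Of 18 tested neural splicing factors 17 were lower in colon, with a median difference of -3.35, and Srrm4 and Khdrbs2 stood in the hippocampus table only. Rbfox1, which binds introns beside neuronal exons, had 1.34, 3.63 and 3.16 TPM in colon and 219, 202 and 228 TPM in hippocampus (difference -5.93). Mbnl2 was not called, with 72.5, 82.7 and 88.2 TPM in colon and 96.9, 93.3 and 97.01 TPM in hippocampus. Of 20 tested factors of epithelia or of most cells 7 were higher in colon and none was lower, and the epithelial factors Esrp1 and Esrp2 stood in the colon table only, Esrp1 at 128, 120.3 and 129.8 TPM. Rbm47, an RNA-binding protein of gut epithelium, had 65.0, 58.4 and 62.0 TPM in colon and 0.688, 0.419 and 0.694 TPM in hippocampus. Ptbp1, which represses neuronal exons outside the brain, had 200.1, 207 and 199 TPM in colon and 26.9, 31.0 and 28.6 TPM in hippocampus. Its relative Ptbp2, which replaces it in neurons, had 33.7, 33.8 and 30.5 TPM in colon and 89.3, 81.9 and 73.0 TPM in hippocampus.

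The repressor REST, which binds RE1 elements and keeps neuronal genes silent outside the nervous system, was itself higher in colon. Rest had 12.4, 13.3 and 12.2 TPM in colon and 1.80, 2.20 and 2.13 TPM in hippocampus (difference 2.16 ± 0.12, SE, n = 3 each; limma adjusted p = 4.36e-07). Of 14 genes of REST and its partners 7 were higher in colon and 1 was lower. The small phosphatase Ctdsp1, which acts with REST, had 156, 157 and 146 TPM in colon and 19.0, 21.0 and 21.3 TPM in hippocampus. The deacetylase Hdac1 had 384, 357 and 370.2 TPM in colon and 47.4, 48.4 and 47.6 TPM in hippocampus, whereas its close relative Hdac2 was not called, with 131, 143 and 129 TPM in colon and 132, 131 and 131 TPM in hippocampus. The corepressors split in the same manner: Rcor1 was higher by 1.48 and Rcor2 lower, with a difference of -1.03 that did not hold without colon sham 3b (-0.79) or hippocampus sham 1 (-0.97).

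A strict form of the RE1 element, CAGCACC and GGACAG with any 2 bases between them, on either strand, was found in 10 of 27457 promoters in RefSeq GRCr8 (0.0364%), and 7 of the genes have a row in the tables. All 7 were lower in colon or stood in the hippocampus table only, and none was among the genes in the colon table only, higher in colon or not called. The count is small and the letters were chosen with the levels of these genes known. The 31 bases around 1 site of each gene are shown as sequences behind this count, on the strand of the gene, with the motif letters in capitals. The promoter of Fbll1 holds 2 sites, of which 1 is shown.
Fbll1, chr10:20764539-20764569: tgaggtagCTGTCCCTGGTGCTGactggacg
Ogdhl, chr16:7584572-7584602: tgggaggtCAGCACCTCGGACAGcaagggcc
Tmem179, chr6:137401520-137401550: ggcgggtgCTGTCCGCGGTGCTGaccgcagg
Ttc9b, chr1:92081038-92081068: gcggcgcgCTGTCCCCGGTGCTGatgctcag
Fam163b, chr3:30864609-30864639: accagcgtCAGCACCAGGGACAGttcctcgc
Hrh3, chr3:187574339-187574369: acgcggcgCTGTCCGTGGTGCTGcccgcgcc
Vwc2l, chr9:79702891-79702921: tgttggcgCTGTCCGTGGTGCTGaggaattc
Ogdhl, Ttc9b and Vwc2l are on the + strand and the others on the - strand. Of the 4 genes tested, Ttc9b had 6.48, 8.61 and 5.49 TPM in colon and 305, 314 and 316 TPM in hippocampus (difference -5.33). Fbll1, a relative of the nucleolar methyltransferase fibrillarin, had 3.43, 4.76 and 4.04 TPM in colon and 99.8, 106 and 95.0 TPM in hippocampus (difference -4.33). Tmem179 and Ogdhl, which is related to an enzyme of the citric acid cycle, had differences of -3.87 and -3.05. The histamine receptor gene Hrh3 stood in the hippocampus table only, with 15.1, 21.0 and 20.4 TPM.

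Pairs of related genes gave a comparison that does not depend on how a library was scaled, since both genes are read in the same library. Of 41 pairs written down with the widely expressed or epithelial gene over the neural one, 33 had both genes in both tables. In all 33 the log2 ratio was higher in every colon library than in every hippocampus library, by 2.28 to 9.90 with a median of 5.13. In 26 of them the order turned over, with the first gene ahead in colon and the second ahead in hippocampus. The pairs were chosen for known neural use, with earlier results in view, so the direction is a description. All 33 distinct genes written as neural were lower in colon. Of 32 distinct partners 16 were higher, 14 were not called and 2 were lower, namely Camk2g and Rbfox2. Neural is here the label of the written pairs, and whether each gene under it is used mainly by neurons was not tested. Some had a high level in colon as well, such as Atp2a2 with 140, 149 and 148 TPM, against 379, 363 and 366 TPM in hippocampus.

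The widest change among the 33 pairs was that of metallothioneins, which bind zinc and copper. The log2 ratio of Mt1 to Mt3 was 2.69, 1.90 and 2.98 in colon and -7.46, -6.87 and -7.81 in hippocampus. For calcium/calmodulin-dependent kinase II the ratio of Camk2d to Camk2a changed by 8.72, although Camk2d itself was not called, with 59.0, 59.3 and 60.9 TPM in colon and 46.4, 40.7 and 48.3 TPM in hippocampus. The ratio for the calcium pump of the endoplasmic reticulum (Atp2a3 over Atp2a2) changed by 7.91.

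Vamp8 over Vamp2, which sit on vesicles and take part in membrane fusion, had log2 ratios of 0.304, 0.227 and 0.398 in colon and -6.21, -6.55 and -5.73 in hippocampus. Vamp2 was thus nearly level with Vamp8 in colon, at 139, 148 and 140.1 TPM beside 172, 173 and 185 TPM. Tubb6 over Tubb3, which encode beta-tubulins, changed by 7.38, and reads of tubulin genes may be shared between near-identical copies.

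**Figure D5:**
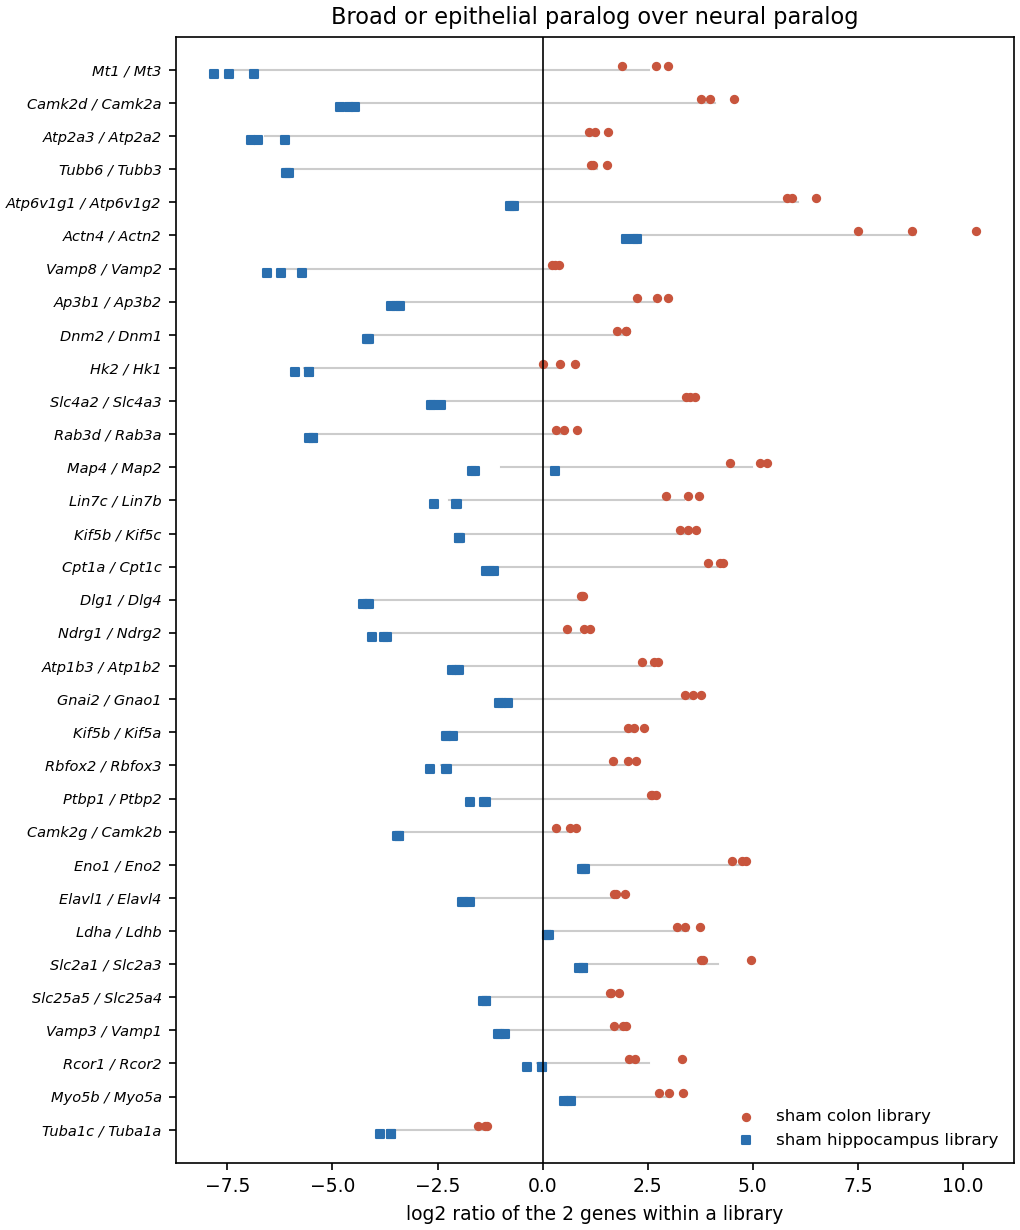
Log2 ratio of the widely expressed or epithelial gene to the gene written as neural, within each library for 33 pairs. Sham colon libraries are red circles and sham hippocampus libraries are blue squares. A ratio of 0 means equal TPM. The colon libraries lie to the right of the hippocampus libraries for all 33 pairs, and for 26 pairs the groups fall on opposite sides of 0.

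In 7 pairs the order did not turn over as written. Tuba1a, an alpha-tubulin of developing and mature neurons, stayed ahead of Tuba1c in colon too, with 629, 670.4 and 619 TPM in colon, against 3336, 3405 and 3284 TPM in hippocampus. The first gene stayed ahead in hippocampus for Myo5b over Myo5a, Eno1 over Eno2, Ldha over Ldhb, Slc2a1 over Slc2a3 and Actn4 over Actn2. The lactate dehydrogenase subunits were close to level there: Ldha had 838, 766 and 1079 TPM in colon and 787, 819.8 and 858 TPM in hippocampus, and Ldhb had 80.3, 83.1 and 80.0 TPM in colon and 737, 732 and 797 TPM in hippocampus. The remaining pair, Map4 over Map2, was split by the low Map2 of hippocampus sham 2, with ratios of 5.16, 5.35 and 4.46 in colon and -1.68, 0.29 and -1.61 in hippocampus.

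Genes of energy metabolism differed in direction by pathway, and the use of fuels was not tested. Of 24 genes of fatty acid oxidation and ketone metabolism, 16 were higher and 2 were lower in colon, with a median difference of 1.39. The number higher was 15 without hippocampus sham 1, 14 without colon sham 3a and 17 on FPKM as deposited. Acads, which oxidises short-chain fatty acids such as butyrate, had 291, 283 and 280.3 TPM in colon and 23.3, 22.3 and 23.5 TPM in hippocampus (difference 3.57 ± 0.05, SE, n = 3 each; limma adjusted p = 7.22e-10). Oxct1, which breaks ketone bodies down, was lower in colon, with 91.5, 87.4 and 120.0 TPM in colon and 309.5, 313 and 285 TPM in hippocampus (difference -1.60). The other gene lower in colon was Cpt1c, the brain form of carnitine palmitoyltransferase, with a difference of -3.19.

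Of 18 tested genes of glycolysis 2 were higher and 6 were lower in colon, with a median difference of -0.61, and the liver-type enzyme Pklr stood in the colon table only. Hexokinases differed in opposite directions: Hk2 had 67.0, 52.1 and 78.7 TPM in colon and 6.05, 6.96 and 4.85 TPM in hippocampus. Hk1 had 50.5, 51.8 and 46.3 TPM in colon and 286, 329.5 and 288 TPM in hippocampus. The log2 ratio of Hk2 to Hk1 was 0.406, 0.00844 and 0.766 in colon, nearly level in sham 3a. The brain forms Aldoc and Eno2 were lower in colon, with differences of -5.15 and -4.40. Gapdh was not called, with 1939, 1787 and 2016 TPM in colon and 2641, 2723 and 2809.9 TPM in hippocampus.

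Of 26 genes of cholesterol synthesis and handling 2 were higher and 7 were lower in colon, with a median difference of -0.74. The number lower was 9 without hippocampus sham 1 or without colon sham 3b, and 5 on FPKM as deposited. Cyp46a1, the brain enzyme that turns cholesterol into a form that can leave the brain, had 1.53, 1.85 and 2.11 TPM in colon and 139, 139.6 and 158 TPM in hippocampus (difference -5.70). Apoe, the lipid carrier made by astrocytes, had 202, 177 and 129 TPM in colon and 1948, 1888 and 1932 TPM in hippocampus. Among the enzymes of the pathway itself Hmgcs1 had the largest difference, -2.03, and Ebp, a sterol isomerase, went the other way with 92.1, 94.3 and 109 TPM in colon and 23.2, 24.6 and 25.3 TPM in hippocampus.

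The secretory pathway was moderately higher in colon. Of 36 tested genes of the endoplasmic reticulum 16 were higher and none was lower, with a median difference of 0.79, and Agr3 and Ern2 stood in the colon table only. P4hb, a disulfide isomerase, had 765, 715 and 764 TPM in colon and 146, 160.4 and 162 TPM in hippocampus (difference 2.25). Apart from Agr2, described with the goblet cells, the largest difference was that of Creb3l1, a factor activated by transport out of the endoplasmic reticulum, with 214, 200.1 and 251 TPM in colon and 12.8, 12.4 and 14.49 TPM in hippocampus. Members of the general translocation machinery were often not called, such as Spcs1 of the signal peptidase, with 146, 149 and 149.9 TPM in colon and 140.02, 151 and 165 TPM in hippocampus.

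Of 48 nuclear receptor genes, 12 stood in the colon table only and 4 in the hippocampus table only. Of 26 tested 6 were higher and 8 were lower in colon, or 23.1% and 30.8%, near the 23.0% and 20.3% of all tested genes, with a median difference of -0.10. Receptors for bile acids, xenobiotics and vitamin D were in the colon table only: Nr1h4 had 96.6, 94.3 and 49.5 TPM, Nr1i2 had 97.5, 101 and 79.7 TPM, and Vdr had 47.9, 50.1 and 65.9 TPM. The thyroid hormone receptor gene Thra had 102, 117 and 90.0 TPM in colon and 620.5, 665 and 590.2 TPM in hippocampus (difference -2.60). The immediate early genes Nr4a1, Nr4a2 and Nr4a3 were lower in colon, Nr4a3 with 0.511, 1.20 and 2.05 TPM in colon and 39.9, 39.2 and 33.8 TPM in hippocampus. Receptors of retinoids split, with Rxra higher by 2.54 and Rxrg at a difference of -2.01.

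The most abundant transcripts were largely the same. Mitochondrially encoded genes filled 8 of the 10 leading places in colon and all 10 in hippocampus. Mt-atp6 came first in both, with 15632, 18001 and 17955 TPM in colon and 22476, 20235 and 20951 TPM in hippocampus, and was not called. Together the 13 listed mitochondrial genes made up 10.3% to 11.5% of the total over shared genes in colon and 12.8% to 14.3% in hippocampus. The other places in colon went to Lypd8 and to Eef1a1, a translation elongation factor with 5436, 5456 and 5238 TPM in colon and 2352, 2339 and 2297 TPM in hippocampus. Mitochondrial genes and Eef1a1 have copies elsewhere in the genome, and their levels depend on how the authors counted shared reads.

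At the other extreme, 958 genes had at least 100 TPM in all 6 libraries, and the 6 of these with the smallest difference were Cct2, Ube2q1, Hp1bp3, Psmc4, Os9 and St13. Hp1bp3, a chromatin protein, had 140.2, 144 and 137 TPM in colon and 139, 142 and 139 TPM in hippocampus. Cct2, a subunit of the chaperonin that folds actin and tubulin, had 211, 222 and 197 TPM in colon and 208, 204 and 219 TPM in hippocampus. For each of the 6 genes the libraries of the tissues interleaved on this scale, which rests on the shared total.

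Genes that stood in 1 table only could not be tested. In the hippocampus table, next to Slc17a7, the leading ones were Ptgds, a prostaglandin synthase, with 498, 376 and 584 TPM, Ddn, a postsynaptic protein, with 477, 466 and 473 TPM, and Fabp7 of astrocytes and radial glia, with 453, 469 and 449 TPM. Camkv, Bcan, B3gat1, Icam5 and Rasgrf1 were also among the first 10. Most genes of this kind were low: the median over genes of the mean of 3 libraries was 5.03 TPM for the colon table and 4.69 TPM for the hippocampus table. At least 5 TPM in all 3 libraries was reached by 687 genes in the colon table only and by 496 genes in the hippocampus table only, and at least 100 TPM by 74 and 43. Apart from hippocampal Tlr4, each listed gene averaged 0.5 FPKM or more over the sham or the HI libraries of its tissue, so a gene without a row may have been present below that level.

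These groups of genes also differed in length and promoter composition. Genes in the colon table only spanned a median of 12976 bases and genes in the hippocampus table only 19599.5 bases. Genes higher in colon spanned a median of 17937 bases and genes lower in colon 26541 bases, beside 20605 bases for all genes tested. In promoters of 300 bases from RefSeq GRCr8, matched by symbol for 11328 of 15740 symbols, the median GC content was 53.7% for genes in the colon table only and 57.0% for those in the hippocampus table only. It was 60.3% for genes higher in colon and 63.5% for genes lower in colon. The ETS motif CCGGAAGT on either strand was found in 10.7% of promoters of genes not called, against 5.16% for genes higher in colon, 3.95% for genes lower in colon, 1.85% and 0.945% for genes in the colon or hippocampus table only, and 4.01% of all promoters. The letters TATAAA on either strand were most frequent for genes in the colon table only, at 15.7%, against 9.31% in the hippocampus table only and 14.3% of all promoters.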

How the data were processed

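RNA sequencing of 3 sham colon and 3 sham hippocampus libraries was analysed. The deposited values are FPKM, per the file headers, in 1 table for each tissue. TRIzol RNA was enriched for mRNA, fragmented and amplified, per the labels' protocols. The aligner, quantifier, build and annotation, not given in the sources used here, could not be checked. Depth is unknown, so no counting intervals are given.

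Tables were joined by gene identifier. FPKM were rescaled in each library so that the 13130 shared genes summed to 1000000 (TPM). Genes with at least 1 TPM in at least 3 libraries were tested with limma 3.58.1 (R 4.3.3; eBayes with trend) on log2(TPM + 1), which understates changes of low genes, with Benjamini-Hochberg adjustment over all 13098 genes. Calls needed an adjusted p under 0.05 and a difference of at least 1. The fit was tested on simulated data. Errors of differences are SE.

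The gene lists, pairs and motifs were chosen with earlier results of these data known. Genes named are, per direction, the 12 with the largest difference and at least 20 TPM, the 10 leading genes of each table alone and of each tissue, leading members of each list, pairs against their written direction, and the 6 most alike; other members were chosen after their values were seen. List members without a row under their own symbol were matched through RefSeq synonyms. Some genes, and pairs that hold them, are not reported here.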

Additional observations from a re-analysis of the deposited data

How the results depend on the processing

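No paired analysis was possible because only number 1 can be identified in both tissues, since 2 colon columns share a heading. A planned test on counts was not run because the tables hold FPKM. With the adjusted p alone and no minimum difference, 5787 genes were higher and 4891 lower in colon. The counts under every other setting were within 1.5 times of 3018 and 2655. Leaving out 1 library at a time gave 2954 to 3067 higher and 2601 to 2686 lower. Scaling moved the balance: on FPKM as deposited 3090 were higher and 2331 lower with a median difference of 0.21, and with median-ratio scaling 2765 and 2850 with a median of 0.01. Asking for 5 TPM in all 3 libraries left 687 genes in the colon table only and 496 in the hippocampus table only. Of 535 named or listed genes tested, 347 changed call under no setting. Calls near the limit, such as those of Chgb, Cx3cr1, Rcor2, Pgam1 and Rbfox2, were lost under some. With the HI libraries in place of sham, added after seeing the data, Clic6 turned round to -0.51 (limma adjusted p = 0.726), and 2707 of 3018 and 2494 of 2655 genes were called in the same direction.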

Other observations

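Of 30 tested semaphorin and plexin genes, which encode guidance cues and their receptors, 6 were higher and 15 were lower in colon, with a median difference of -1.03. Sema6b, a membrane-bound cue, had 3.06, 2.38 and 2.44 TPM in colon and 99.5, 98.4 and 86.9 TPM in hippocampus (difference -4.73). The secreted cues Sema3a, Sema3b and Sema3f went the other way, Sema3a with 12.8, 13.9 and 12.9 TPM in colon and 1.56, 0.995 and 1.19 TPM in hippocampus (difference 2.66 ± 0.14, SE, n = 3 each; limma adjusted p = 3.09e-07). Among cadherins 8 stood in the hippocampus table only, Cdh9 at 40.6, 47.3 and 45.0 TPM, and 3 in the colon table only. Cdh2, the cadherin of neurons, had 18.6, 20.1 and 17.8 TPM in colon and 118, 121 and 109 TPM in hippocampus, and Cdh3 of epithelia had 19.9, 20.7 and 19.9 TPM in colon and 1.04, 0.854 and 1.13 TPM in hippocampus.

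Intermediate filaments outside the keratins gave 7 higher and 5 lower of 13. The nuclear lamin gene Lmna had 264, 251 and 343 TPM in colon and 28.1, 28.1 and 31.6 TPM in hippocampus, and the neurofilament gene Nefh had 1.41, 1.04 and 1.49 TPM in colon and 98.8, 98.4 and 101 TPM in hippocampus. Of 18 tested imprinted genes 4 were higher and 7 were lower in colon. Nnat had 189, 177 and 160.1 TPM in colon and 1949.6, 2288 and 1881 TPM in hippocampus, and Dlk1 had 10.1, 9.64 and 18.2 TPM in colon and 1.14, 1.51 and 1.63 TPM in hippocampus. Of 10 tested genes of DNA methylation 2 were higher in colon (20%, near the 23.0% of all tested genes), none was lower and 8 were not called. The largest difference was that of Uhrf1, which recruits Dnmt1 to replicating DNA. It had 41.7, 40.7 and 37.2 TPM in colon and 3.79, 4.68 and 3.74 TPM in hippocampus.

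A list of 8 choroid plexus genes summed to 146 to 224 TPM in colon and 4.79 to 23.5 TPM in hippocampus. Of these, 4 stood in the hippocampus table only and none in the colon table only, and 3 of 4 tested were higher in colon. Folr1, a folate receptor, had 134.6, 111.6 and 55.6 TPM in colon and 2.62, 5.84 and 2.49 TPM in hippocampus (difference 4.43). The water channel gene Aqp1 had 70.2, 66.8 and 83.3 TPM in colon and 0.997, 0.680 and 1.03 TPM in hippocampus (difference 5.29), and Clic6 was higher by 2.79. The other member tested, Ttr, had 8.99, 1.95 and 2.97 TPM in colon and 0.875, 15.3 and 10.9 TPM in hippocampus and was not called, but without hippocampus sham 1 it was lower in colon (difference -1.51, limma adjusted p = 0.0219). Otx2 was listed at 0 in all 3 hippocampus libraries. With the HI libraries of both tissues in place of sham, 1 of the 4 was higher and 1 was lower. Ckm of skeletal muscle stood in the colon table only, with 62.3, 58.9 and 43.5 TPM. Of 8 pancreatic genes, 1 stood in the hippocampus table only and 2 in the colon table only. The lipase gene Pnlip had 42.2, 41.3 and 70.6 TPM in hippocampus. Cela1 had 46.1, 35.7 and 34.3 TPM in colon, and Cel had 0.474, 0.352 and 0.268 TPM there. The pancreatic genes Prss1, Cpa1 and Ctrb1 have no row in the tables used here.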
